A study of Homo sapiens with 8 samples.

Results

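The 10 genes described here encode the NF-κB transcription factor and its core inhibitors. They are the 5 subunit genes NFKB1, NFKB2, REL, RELA and RELB, and 5 genes of inhibitors or inhibitor-like proteins, NFKBIA, NFKBIB, NFKBIE, TNFAIP3 and BCL3. Each was found by its symbol among the 28265 genes of the count tables. The libraries are factory RNA-seq of IMR90, a line of human fetal lung fibroblasts, at low passage. The control group is labelled only as young, and the design text calls it wild type. Further groups were treated for 3 or 6 days with inflachromene (ICM), a small molecule that binds the chromatin proteins HMGB1 and HMGB2, and a last group is labelled MetaICM, a treatment that the labels and the study's text do not explain. Every group held 2 libraries, and nothing in the labels says whether these came from separate cultures, so p-values measure only the spread between libraries.

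NF-κB is a dimer of Rel-family proteins. In resting cells IκB proteins hold the dimers in the cytoplasm. Signals from cytokine and Toll-like receptors activate the IκB kinase, IκB is degraded and the dimers enter the nucleus, where they switch on cytokine, chemokine and survival genes. Among the genes they induce are those of their own inhibitors, which closes a feedback loop. In fibroblasts the pathway is known for driving the inflammatory secretion of senescent cells.

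The libraries held between 12095123 and 23166405 counted read pairs. All 10 genes had enough counts to be tested in all 6 comparisons between groups. Of 10 fibroblast markers, all had at least 10 counts in every library. Their summed level moved with the treatment, from 23418 and 23255 CPM (counts scaled to an equal library size, with TMM factors over the 8 libraries) in the young libraries to 14432 and 13049 CPM after 3 days, 11418 and 11049 CPM after 6 days, and 20391 and 21278 CPM in MetaICM. The sum is mostly collagen and its part in the results below was not tested. The 6 epithelial markers summed to at most 1.49 CPM in any library, with NKX2-1 at 0 throughout. The 7 immune markers summed to between 2.98 and 5.10 CPM, with CD3E at 0. The 6 endothelial markers summed to between 130 and 234 CPM, nearly all of it from TEK, while PECAM1 reached at most 0.446 CPM and CDH5 at most 0.083 CPM. In bulk RNA such as this, fewer cells that express a gene and less RNA per cell cannot be told apart.

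Part of the family carries a strict form of the NF-κB site next to its annotated start. In the 250 bases before the first annotated exon base (GRCh37), a stretch of 3 G, 1 A, any 2 bases, 2 T and 2 C, read on either strand, occurs in 4 of the 10 genes and in 330 of 27479 such windows over all genes (1.20%). A looser pattern, 3 G, any 5 bases and 2 C, which holds every stricter match, occurs in all 10 genes, but also in 56.1% of all windows. Only the 4 windows with the stricter match are shown, those of 2 subunit genes and 2 inhibitor genes. Each runs 5′ to 3′ on the gene's own strand and ends at the base before the first exon. Capitals mark the match, which in REL is a pair of matches that overlap by all but 1 base. NF-κB sites that depart from the stricter pattern are not marked, also in the windows shown, and genes outside these 4 may hold them. A match in letters is not a bound site, and genes with several starts have other promoters that were not searched.
NFKB1 (chr4:103422266-103422515, plus strand): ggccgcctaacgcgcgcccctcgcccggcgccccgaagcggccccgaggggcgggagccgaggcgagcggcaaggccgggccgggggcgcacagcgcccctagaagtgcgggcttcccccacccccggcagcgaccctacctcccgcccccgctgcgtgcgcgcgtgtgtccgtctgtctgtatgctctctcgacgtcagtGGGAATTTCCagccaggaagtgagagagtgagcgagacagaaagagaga
REL (chr2:61108459-61108708, plus strand): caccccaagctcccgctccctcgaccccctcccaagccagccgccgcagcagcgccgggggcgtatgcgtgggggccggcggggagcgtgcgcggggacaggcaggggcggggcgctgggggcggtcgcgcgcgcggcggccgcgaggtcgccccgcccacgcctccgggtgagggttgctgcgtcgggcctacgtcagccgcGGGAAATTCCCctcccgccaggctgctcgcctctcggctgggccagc
NFKBIA (chr14:35873961-35874210, minus strand): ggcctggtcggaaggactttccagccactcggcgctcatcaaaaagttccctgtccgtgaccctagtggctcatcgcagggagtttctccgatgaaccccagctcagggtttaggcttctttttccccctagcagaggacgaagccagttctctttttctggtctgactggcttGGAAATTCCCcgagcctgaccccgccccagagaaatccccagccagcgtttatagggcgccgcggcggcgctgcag
TNFAIP3 (chr6:138188146-138188395, plus strand): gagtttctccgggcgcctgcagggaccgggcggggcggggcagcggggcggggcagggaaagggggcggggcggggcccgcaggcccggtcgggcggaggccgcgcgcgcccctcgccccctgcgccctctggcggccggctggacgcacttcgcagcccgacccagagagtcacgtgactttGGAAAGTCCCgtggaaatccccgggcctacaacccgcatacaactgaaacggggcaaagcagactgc

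The genes differ widely in level. Per kilobase of exon, the young means (SD, n = 2 libraries) were highest for NFKBIA with 17.8 ± 8.04 CPM per kb, NFKB1 with 17.3 ± 2.00, NFKB2 with 16.5 ± 3.02 and RELA with 13.7 ± 2.15. Neighbours in this order overlap over the 2 young libraries and do not differ beyond their spread. BCL3 with 5.97 ± 0.916, TNFAIP3 with 5.49 ± 2.77 and RELB with 4.57 ± 1.11 CPM per kb formed a middle range, again with overlapping neighbours. NFKBIB (2.55 ± 0.453), NFKBIE (2.15 ± 1.15) and REL (1.71 ± 0.284) were lowest. After 6 days of ICM, RELA led with 16.4 ± 0.609 CPM per kb, and TNFAIP3, with 0.676 ± 0.216, was the lowest of the 10.

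**Figure D1:**
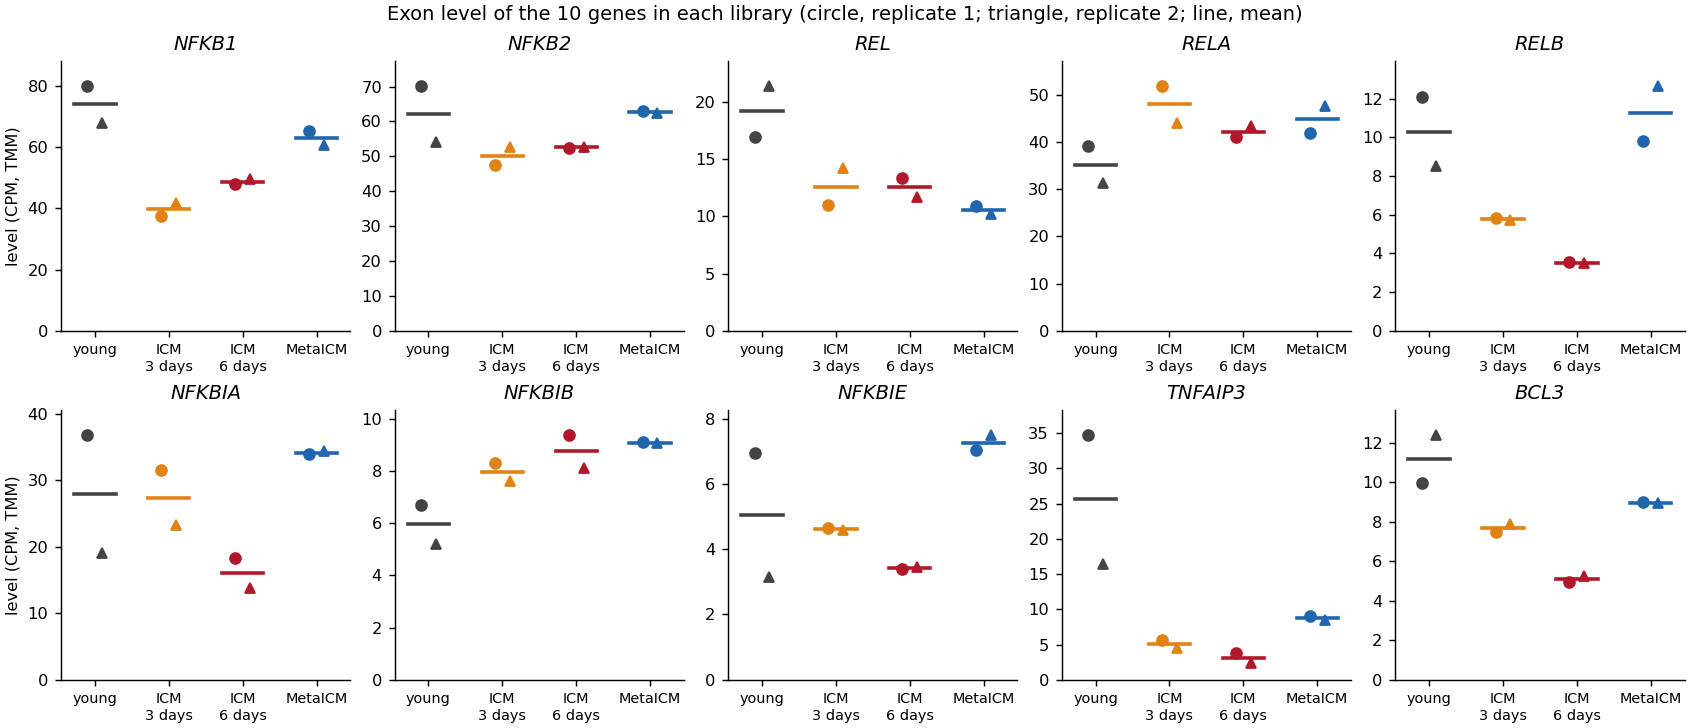
Level of each of the 10 genes (CPM, linear axes from 0) in the 2 libraries of each condition, with circles for replicate 1, triangles for replicate 2 and lines for the means. TNFAIP3 falls from 34.8 and 16.5 CPM in young to 3.87 and 2.44 CPM after 6 days of ICM, and RELA stays between 31.3 and 52.0 CPM in all 8 libraries.

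A gene was called with an adjusted p under 0.05 and an absolute log2FC over 0.6. With both young libraries in the fit, no member of the family was called higher than young in any treatment, except NFKBIB in MetaICM under 3 alternatives given with that gene. Fits against a single young library take their spread from the treated pair alone. The members' median absolute log2 difference was 0.37 between the young libraries, against 0.16, 0.08 and 0.09 within 3 days, 6 days and MetaICM. Calls in such fits can therefore come too easily, and they are given below for the size of the log2FC. After 3 days of ICM, NFKB1, REL, RELB and TNFAIP3 were called lower (4 of 10), where 13.2% of the 15692 genes tested were called lower, 8.85% higher and 22.0% in either direction. With library totals in place of TMM, the called genes split into 1785 higher and 1767 lower rather than 1389 and 2067, and 3 of the 10 genes were called, since REL dropped to −0.54. After 6 days, 6 of 10 were called lower, now also NFKBIA and BCL3 beside the 4 of day 3, where the background of 15950 genes was 17.2% lower, 13.3% higher and 30.5% in all. With library totals, or with libraries thinned to the smallest total, 4 were called after 6 days, without NFKB1 and REL. With all genes with a count it was 3, without NFKBIA as well. In MetaICM, REL and TNFAIP3 were called lower (2 of 10), against 8.99% lower, 7.41% higher and 16.4% in all of 15904 genes. The median log2FC of the 10 genes was −0.43 after 3 days, −0.61 after 6 days and 0.06 in MetaICM, while the medians over all genes tested were 0.01, 0.00 and 0.00. The libraries of the groups did not overlap for 8, 9 and 7 of the 10 genes, which is near the background of 65.5%, 72.6% and 68.3% of all genes, so this count says little about the family.

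The subunit genes did not move as a block. NFKB1, on chromosome 4 (103422516 to 103538459 in GRCh37), encodes the precursor of the p50 subunit. It stood at 80.2 and 68.1 CPM in the young libraries, 37.6 and 41.9 CPM after 3 days, 48.0 and 49.6 CPM after 6 days and 65.3 and 60.9 CPM in MetaICM. All ICM libraries were below all young and MetaICM libraries. Against young, the log2FC was −0.90 after 3 days (SE 0.14, adjusted p = 0.000483 by edgeR), −0.61 after 6 days (SE 0.12, adjusted p = 0.00294) and −0.24 in MetaICM (SE 0.12, adjusted p = 0.165). The 6-day value lies at the threshold. It was −0.56 with library totals, −0.58 with all genes with a count and −0.58 with thinned libraries, and was then not called. Against young library 2 alone it was −0.49, and the call was also lost without the first 6-day library.

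NFKB2, on chromosome 10 (104153867 to 104162286), encodes the precursor of p52, the partner of RELB in the alternative pathway. Its level was 70.3 and 54.1 CPM in young, 47.4 and 52.7 CPM after 3 days, 52.5 and 52.8 CPM after 6 days and 63.0 and 62.5 CPM in MetaICM. No comparison of NFKB2 was called. The normal 95% intervals of its log2FC against young were −0.62 to −0.02, −0.52 to 0.02 and −0.26 to 0.27 for the 3 treatments. The first leaves out 0, although edgeR gave an unadjusted p of 0.0553.

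RELB, on chromosome 19 (45504722 to 45541450), showed the widest range among the subunits. It had 12.1 and 8.53 CPM in young, 5.84 and 5.73 CPM after 3 days, 3.54 and 3.51 CPM after 6 days and 9.80 and 12.7 CPM in MetaICM. The ICM libraries formed descending steps below young, and the MetaICM libraries lay within or just above the young range. The log2FC against young was −0.84 after 3 days (SE 0.23, adjusted p = 0.0161 by edgeR) and −1.56 after 6 days (SE 0.23, adjusted p = 0.000373), and in MetaICM it was 0.11 (SE 0.21, adjusted p = 0.713). Against young library 2 alone, the 3-day value was −0.56 and not called; it was also not called without the first 3-day library or without the second.

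REL, on chromosome 2 (61108709 to 61158747), encodes c-Rel, best known in lymphocytes. It measured 16.9 and 21.4 CPM in young, 11.0 and 14.2 CPM after 3 days, 13.4 and 11.7 CPM after 6 days and 10.9 and 10.2 CPM in MetaICM. It was the only subunit gene called lower in all 3 treatments, with log2FC of −0.61 (SE 0.19, adjusted p = 0.0322), −0.61 (SE 0.17, adjusted p = 0.0154) and −0.86 (SE 0.16, adjusted p = 0.00484). The first and second of these sit at the threshold. Both lost their call with library totals (−0.54 and −0.57) and with thinned libraries (−0.57 and −0.58), and the second also with all genes with a count (−0.59). Against young library 1 alone they were −0.46 and −0.44. The 3-day call was also lost without the first 3-day library, and the 6-day call without either 6-day library. The third lost its call without the second MetaICM library.

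RELA, on chromosome 11 (65421067 to 65430443, minus strand), encodes p65, the main activating subunit of the canonical pathway. Its libraries stood at 39.1 and 31.3 CPM in young, 52.0 and 44.1 CPM after 3 days, 41.1 and 43.4 CPM after 6 days and 41.9 and 47.7 CPM in MetaICM. Every treated library was above both young libraries, by small amounts. The log2FC was 0.44 after 3 days (SE 0.16, adjusted p = 0.0516), 0.25 after 6 days (SE 0.14, adjusted p = 0.164) and 0.34 in MetaICM (SE 0.14, adjusted p = 0.0945). None was called. Against young library 2 alone, the 3-day value became 0.62.

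TNFAIP3, on chromosome 6 (138188396 to 138204449), encodes A20, a ubiquitin-editing enzyme that shuts off signalling upstream of the IκB kinase. With both young libraries it fell furthest of the 10 genes in every treatment. Against young library 2 alone, REL fell further in MetaICM (−1.02 against −0.91 for TNFAIP3). The level of TNFAIP3 was 34.8 and 16.5 CPM in young and 5.70 and 4.52 CPM after 3 days. It was 3.87 and 2.44 CPM after 6 days and 9.01 and 8.47 CPM in MetaICM. No treated library reached the lower young library. The log2FC was −2.32 after 3 days (SE 0.30, adjusted p = 0.000114 by edgeR), −3.04 after 6 days (SE 0.34, adjusted p = 6.75e-05) and −1.57 in MetaICM (SE 0.28, adjusted p = 0.00359), falls of 5.01-fold, 8.21-fold and 2.97-fold. The size depended on which young library was used alone: −2.77 or −1.67 after 3 days, −3.46 or −2.39 after 6 days and −1.99 or −0.91 in MetaICM, for young library 1 and 2.

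NFKBIA, on chromosome 14 (35870716 to 35873960, minus strand), encodes IκBα, the inhibitor that is degraded and remade within each round of signalling. It had 36.9 and 19.0 CPM in young, 31.5 and 23.3 CPM after 3 days, 18.4 and 13.9 CPM after 6 days and 33.9 and 34.4 CPM in MetaICM. The 3-day and MetaICM libraries lay within the young range, and both 6-day libraries lay below it, the higher one by less than 1 CPM. After 6 days the log2FC was −0.81 (SE 0.26, adjusted p = 0.0291). That call rests on young library 1: against it alone the log2FC was −1.19, against young library 2 alone −0.25 with no call. It was also lost without the second 6-day library, and with all genes with a count (−0.79, adjusted p = 0.0984 by edgeR). After 3 days it was −0.04 (SE 0.25, adjusted p = 0.933), with −0.44 and 0.53 against the single young libraries. In MetaICM it was 0.27 (SE 0.23, adjusted p = 0.408), with −0.11 against young library 1 alone and 0.84 against young library 2 alone.

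The other IκB genes were low. NFKBIB, on chromosome 19 (39390306 to 39399534), encodes IκBβ and shares 74 of its 2342 exon bases with SIRT2 on the opposite strand, which unstranded counting cannot assign. It stood at 6.72 and 5.22 CPM in young, 8.32 and 7.62 CPM after 3 days, 9.40 and 8.13 CPM after 6 days and 9.11 and 9.07 CPM in MetaICM. Every treated library was above both young libraries, but no comparison passed both thresholds. Its MetaICM log2FC of 0.59 (SE 0.19, adjusted p = 0.0441) missed the size cutoff narrowly and was called with library totals (0.62), with all genes with a count (0.62) and with the replicate block (0.60). Against young library 2 alone the log2FC of NFKBIB was 0.74 after 6 days and 0.80 in MetaICM, and against young library 1 alone 0.38 and 0.44.

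NFKBIE, on chromosome 6 (44225903 to 44233288, minus strand), encodes IκBε. Its libraries stood at 6.96 and 3.15 CPM in young, 4.64 and 4.58 CPM after 3 days, 3.38 and 3.45 CPM after 6 days and 7.03 and 7.51 CPM in MetaICM. The gap between its young libraries was wider than the step between the means of any 2 conditions except 6 days and MetaICM. No comparison with young was called, with log2FC of −0.16, −0.60 and 0.48, and the sign at 3 and 6 days turned with the young library used. Against young library 1 alone the 6-day value was −1.02, and against young library 2 alone the MetaICM value was 1.21.

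BCL3, on chromosome 19 (45251965 to 45263301), encodes a nuclear IκB-like protein that binds p50 and p52 dimers. It had 9.99 and 12.4 CPM in young, 7.49 and 7.89 CPM after 3 days, 4.94 and 5.26 CPM after 6 days and 9.01 and 8.94 CPM in MetaICM. All treated libraries were below both young libraries, those of 6 days furthest. The 3-day log2FC of −0.54 (SE 0.21, adjusted p = 0.0692) was not called. It was −0.69 against young library 2 alone and −0.40 against young library 1 alone. The 6-day log2FC of −1.13 (SE 0.20, adjusted p = 0.00119) was called, and was −0.97 and −1.29 against young library 1 and 2 alone. In MetaICM it was −0.31 (SE 0.17, adjusted p = 0.203).

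**Figure D2:**
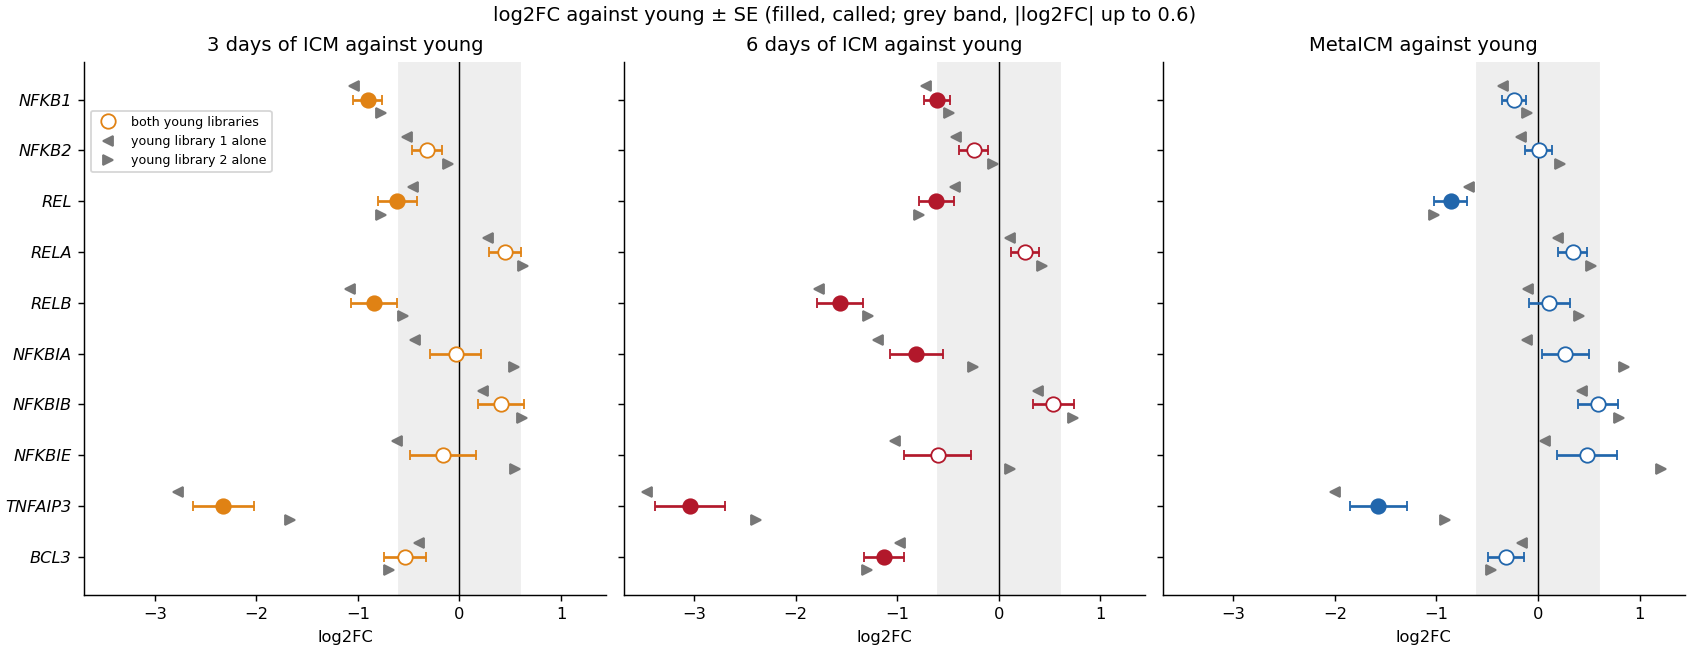
log2FC of each gene against young after 3 days of ICM, 6 days of ICM and in MetaICM, with bars of 1 SE, filled circles for called genes and grey triangles for the fit against young library 1 or 2 alone. TNFAIP3 lies at −2.32, −3.04 and −1.57, and the triangles of NFKBIA and NFKBIE fall on both sides of 0 after 3 days.

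The 2 young libraries themselves differed in these genes. Between them, 8 of 10 genes were higher in young library 1, and 3 exceeded a log2 difference of 0.6. TNFAIP3 was 2.11-fold higher in young library 1 (95% exact binomial interval 1.79 to 2.49, counting error only), NFKBIA was 1.94-fold higher (1.66 to 2.26) and NFKBIE was 2.21-fold higher (1.52 to 3.28). All of these encode inhibitors. Over 16519 genes, 15.8% differed by more than 0.6 in either direction and 8.02% in this direction. The median absolute log2 difference of the 10 genes was 0.37 between the young libraries, against 0.24 over all genes. Between the libraries of 3 days, 6 days and MetaICM it was 0.16, 0.08 and 0.09, against 0.18, 0.14 and 0.12 over all genes. REL was 1.27-fold higher in young library 2 (1.07 to 1.5) and BCL3 1.24-fold higher (0.991 to 1.56). A comparison of single libraries carries no test of condition.

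**Figure D3:**
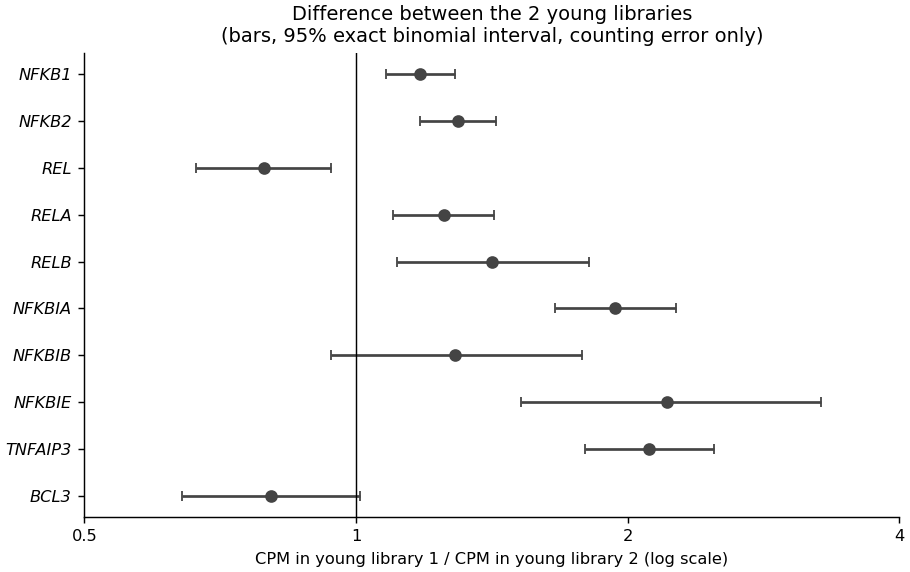
Ratio of the CPM in young library 1 to that in young library 2 for each gene, on a log axis, with 95% exact binomial intervals that cover counting error only. NFKBIE (2.21), TNFAIP3 (2.11) and NFKBIA (1.94) lie apart from the other 7 genes, which run from 0.790 to 1.42.

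Comparisons among the treated groups do not involve the young libraries. Between 3 and 6 days of ICM, RELB and NFKBIA were lower at the later time (2 of 10 called lower), where 4.54% of 15845 genes were called lower, 3.53% higher and 8.07% in all. The log2FC was −0.72 for RELB (SE 0.21, adjusted p = 0.0220 by edgeR) and −0.78 for NFKBIA (SE 0.15, adjusted p = 0.00136). Levels did not overlap between these groups for 7 of the 10 genes, and for 59.4% of all genes. TNFAIP3, with −0.71 (SE 0.25, adjusted p = 0.0520), and BCL3, with −0.59 (SE 0.19, adjusted p = 0.0328), each missed 1 threshold. NFKB1 went the other way without a call, at 0.29 (SE 0.10, adjusted p = 0.0534). The RELB call was lost with DESeq2 and when either 6-day library was left out, or with libraries thinned to the smallest total; that of NFKBIA was lost without the first 3-day library or without the second 6-day library.

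Most inhibitor genes were higher in MetaICM than after 6 days of ICM. Against 6 days of ICM, 5 of 10 genes were called higher, where 15.7% of 16036 genes were called higher, 12.0% lower and 27.7% in all. RELB rose by a log2FC of 1.68 (SE 0.18, adjusted p = 7.59e-08), TNFAIP3 by 1.47 (SE 0.20, adjusted p = 2.26e-06), NFKBIE by 1.09 (SE 0.18, adjusted p = 3.29e-05), NFKBIA by 1.08 (SE 0.11, adjusted p = 4.29e-08) and BCL3 by 0.82 (SE 0.16, adjusted p = 0.000203). So 4 of the 5 genes of inhibitors or inhibitor-like proteins were higher in MetaICM, BCL3 being the inhibitor-like one. NFKBIB was not (0.05, 95% interval −0.23 to 0.34). The same 5 genes were called under every alternative run, including those that left out a library. Levels did not overlap for 8 of the 10 genes, and for 76.2% of all genes. RELA differed little between these groups (0.09, 95% interval −0.08 to 0.26), and REL had −0.25 (SE 0.13, adjusted p = 0.122).

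Against 3 days of ICM, 4 of 10 were called higher in MetaICM, where 13.1% of 16209 genes were called higher, 10.3% lower and 23.4% in all. RELB had a log2FC of 0.96 (SE 0.18, adjusted p = 0.000528), TNFAIP3 of 0.76 (SE 0.18, adjusted p = 0.00380), NFKB1 of 0.67 (SE 0.10, adjusted p = 5.95e-05) and NFKBIE of 0.66 (SE 0.18, adjusted p = 0.00982). NFKBIA, at 0.31 (SE 0.13, adjusted p = 0.0609), was not called. NFKB1 lost its call without the first 3-day library and NFKBIE without the second MetaICM library, and with all 8 libraries in one fit NFKBIE and TNFAIP3 (0.66 and 0.76) were not called. In 9 of the 10 genes the levels did not overlap, as in 72.6% of all genes. The comparisons with 3 and 6 days share the MetaICM libraries.

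**Figure D4:**
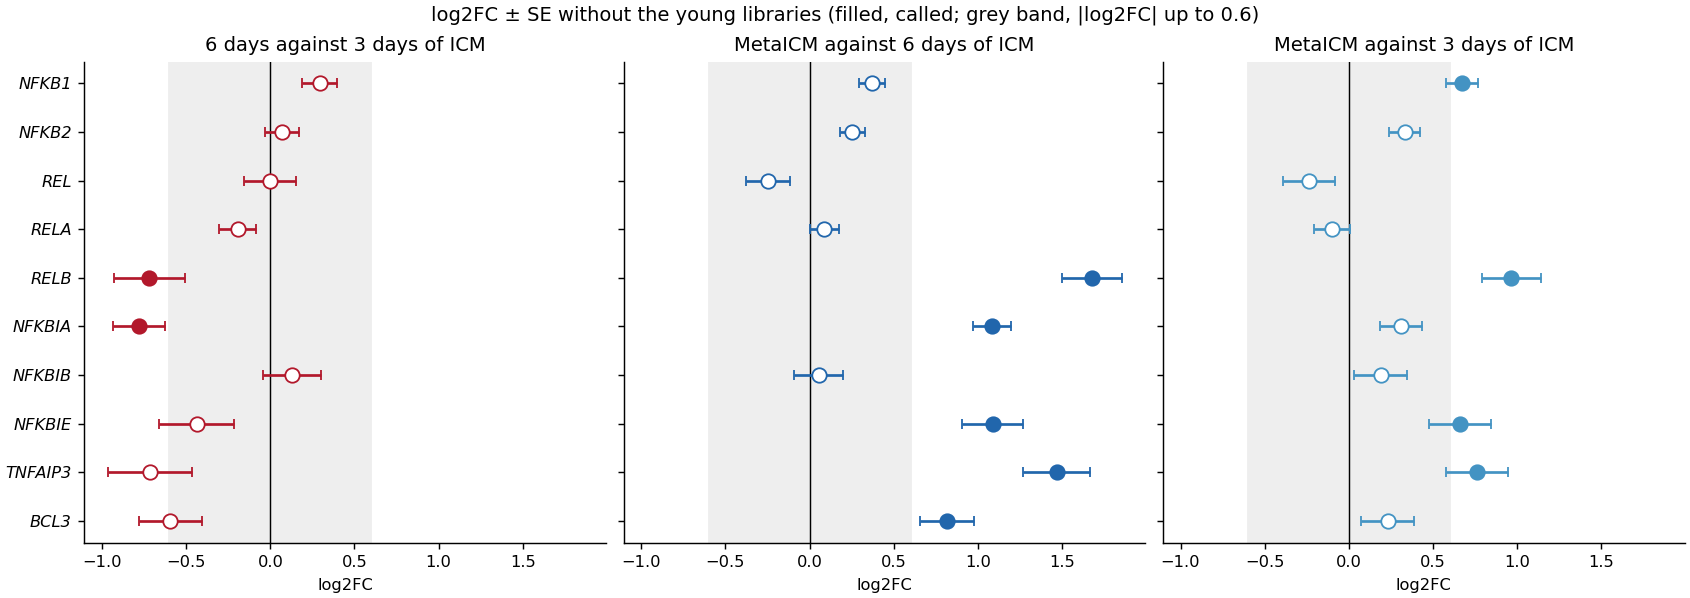
log2FC with bars of 1 SE for 6 against 3 days of ICM, MetaICM against 6 days and MetaICM against 3 days, with filled circles for called genes. RELB moves from −0.72 in the first panel to 1.68 in the second, and RELA and NFKBIB stay inside the grey band of 0.6 in all panels.

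Over the 8 libraries, levels of other genes ran closely alongside some of these. The 3 most like NFKB1 were SF3B3 (Pearson r = 0.994), UGGT1 (0.987) and PTPDC1 (0.986). For TNFAIP3 they were SNORD27 (0.993), PLTP (0.983) and CHEK1 (0.983), for NFKBIA TSC2 (0.991), BTBD6 (0.989) and MICALL1 (0.981), and for RELA SNHG9 (0.982), ATG4B (0.982) and UBXN1 (0.972). These are the highest correlations of log2(CPM + 0.5) among all genes kept, over 8 libraries that fall into 4 groups, and none is a gene of the pathway lists below. A high r sets no size: SF3B3 ranged from 257 to 372 CPM while NFKB1 changed by up to 1.87-fold. SNORD27 and SNHG9 had few counts, 24 to 70 and 18 to 81 per library. TSC2, PLTP and BTBD6 share 783, 200 and 136 exon bases with genes on the opposite strand. Within the family, the 4 pairs with the largest absolute r were REL and NFKBIB (−0.904), NFKBIA and NFKBIE (0.897), REL and RELA (−0.872), and NFKB1 and NFKB2 (0.869).

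Upstream of the family, genes of ligands and receptors moved in both directions. Of 20 listed, 12 were tested after 3 days and 4 were called lower and 2 higher. After 6 days it was 2 lower and 2 higher of 12, and in MetaICM 3 lower and 2 higher of 13. So 50.0%, 33.3% and 38.5% of those tested were called, against 22.0%, 30.5% and 16.4% of all genes tested. IL1A, the gene of an interleukin that activates NF-κB, was at 3.75 and 4.47 CPM in young and between 0.495 and 1.35 CPM in all treated libraries, with log2FC of −2.10, −2.49 and −2.87. IL1B fell in MetaICM (−3.09, SE 0.48, adjusted p = 0.00200; −3.59 and −2.17 against young library 1 and 2 alone) and after 3 days (−1.92), the latter not called against young library 2 alone (−1.01). TNFRSF1B, a TNF receptor gene, fell after 3 days (−1.04) and 6 days (−1.28). It went from 8.26 and 6.95 CPM in young to 3.91 and 3.51 CPM and then 3.11 and 3.19 CPM. The Toll-like receptor genes TLR6 (0.84 and 1.12 after 3 and 6 days) and TLR1 (1.99 after 6 days) rose from low levels. The 3-day call of TLR6 was lost without the second 3-day library. TLR1 rose by 2.74 against young library 1 alone and 1.39 against young library 2 alone. TLR1 and TLR6 are related genes, and any reads that fit both were not counted. LTBR, the lymphotoxin β receptor gene, rose after 3 days (0.65) and in MetaICM (0.68), and TNFRSF12A in MetaICM (0.74). Of these, LTBR shares 350 exon bases with SCNN1A on the opposite strand, and its 3-day call was lost without young library 2 or the first 3-day library. Neither LTBR nor TNFRSF12A was called in MetaICM against young library 1 alone (0.57 and 0.44).

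Among 16 adaptors and ubiquitin ligases, all tested, 4 were lower and 1 higher after 3 days. After 6 days 4 were lower and 2 higher, and in MetaICM 1 lower and 1 higher. These calls were 31.2%, 37.5% and 12.5% of the list, against 22.0%, 30.5% and 16.4% of all genes tested. BIRC3, a ubiquitin ligase gene that NF-κB also induces, was at 7.37 and 4.80 CPM in young, 0.552 and 1.08 CPM after 3 days, 0.644 and 0.638 CPM after 6 days and 3.47 and 4.34 CPM in MetaICM. Its log2FC was −2.97 after 3 days (SE 0.38, adjusted p = 9.38e-05) and −3.25 after 6 days (SE 0.34, adjusted p = 3.61e-05). TRAF5, an adaptor gene of TNF-family receptors, fell in all treatments, by log2FC of −1.25, −2.06 and −0.89. SHARPIN, of the linear ubiquitin ligase complex, rose in all treatments (0.74, 0.66 and 0.72), and IRAK4, a kinase of Toll-like receptor signalling, after 6 days (0.87). Each SHARPIN call was lost when a certain treated library was left out, the first of the ICM groups or the second of MetaICM.

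Of the 11 kinase genes, all tested, 2 were higher and 1 lower after 3 days. After 6 days 1 was higher and 1 lower, and in MetaICM 2 were lower. These shares of 27.3%, 18.2% and 18.2% lay near or below the 22.0%, 30.5% and 16.4% of all genes tested. The counts therefore say little about the kinases as a list. MAP3K14, the NIK kinase of the alternative pathway, fell with ICM from 29.2 and 30.1 CPM to 17.8 and 17.0 CPM after 3 days (−0.77, SE 0.15, adjusted p = 0.00229) and 12.9 and 12.7 CPM after 6 days (−1.22, SE 0.14, adjusted p = 7.15e-05), and stood at 29.0 and 31.6 CPM in MetaICM. It shares 86 exon bases with its antisense gene. TBK1, an IKK-related kinase gene, rose with ICM (0.74 and 0.64). MAP3K8 rose after 3 days (0.91) and fell in MetaICM (−1.53), where TAB2 fell too (−0.67). The calls of MAP3K8 after 3 days and TBK1 after 6 days were lost without the first treated library, and that of TAB2 without young library 2 or either MetaICM library. Of 15 other negative regulators, 1 rose and 1 fell at either time of ICM and 1 rose in MetaICM. These shares of 13.3%, 13.3% and 6.67% lay below those of all genes. TNIP1 rose (0.63) and IRAK3 fell (−0.62) after 3 days. TAX1BP1 rose (0.85) and PDLIM2 fell (−0.67) after 6 days, and PDLIM2 rose in MetaICM (0.64). TNIP1 and TAX1BP1 encode partners of A20. Of these, TNIP1, IRAK3 and PDLIM2 lie near the cutoff of 0.6 and lost the call when 1 library was left out.

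The 30 listed target genes split. After 3 days, 8 of 21 tested were lower and 4 higher. After 6 days it was 8 of 23 lower and 3 higher, and in MetaICM 3 of 20 lower and 4 higher. These calls were 57.1%, 47.8% and 35.0% of the targets tested, against 22.0%, 30.5% and 16.4% of all genes tested. The direction turned with the young library used alone, as the medians at the end of the next paragraph show. VCAM1, the gene of an adhesion molecule, was at 150 and 169 CPM in young, 14.9 and 12.8 CPM after 3 days, 28.5 and 27.1 CPM after 6 days and 208 and 203 CPM in MetaICM, and its 3-day log2FC was −3.52 (SE 0.15, adjusted p = 1.72e-08). ICAM1, another adhesion gene, fell from 42.0 and 36.3 CPM in young to 5.19 and 5.06 CPM after 3 days (−2.93). After 6 days it was at 3.70 and 4.99 CPM (−3.17, SE 0.18, adjusted p = 5.47e-07 by edgeR), and in MetaICM at 29.2 and 32.3 CPM. MMP3, a matrix protease gene, went the other way, from 16.1 and 8.69 CPM to 607 and 528 CPM after 3 days (5.49, SE 0.24, adjusted p = 1.72e-08) and 587 and 567 CPM after 6 days (5.51, SE 0.23), with 19.0 and 17.1 CPM in MetaICM. So adhesion genes and MMP3, all listed as targets, moved in opposite directions with ICM.

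Other targets were scarce or uneven in young. IL32 had 45 and 17 counts in young and 0 in both 6-day libraries, at least 26.8-fold lower against a floor of 3 counts over the group. CXCL1 had 29 and 17 counts in young and 0 and 3 after 3 days, a ratio of 19.4 (95% exact interval 6.24 to 97.6, counting error only). PTGS2, the gene of cyclooxygenase 2, and CXCL8, that of interleukin 8, fell in MetaICM (−3.39 and −3.91), yet in young CXCL8 was at 23.2 and 2.40 CPM and its log2FC was −4.71 against young library 1 alone and −1.45 against young library 2 alone. For PTGS2 it was −2.38 against young library 2 alone. C3 (1.64) and CCL2 (1.38) rose in MetaICM, but C3 fell after 3 and 6 days of ICM (−2.40 and −3.08) and CCL2 after 3 days (−1.67). PTGS2 was called higher than young after 3 and 6 days (0.99 and 1.03), by 2.00 and 2.03 against young library 2 alone, but not against young library 1 alone (0.40 and 0.46). After 6 days CXCL3 rose (1.65, from 48 and 5 counts in young), by 0.96 against young library 1 alone and 3.71 against young library 2 alone. After 3 days IER3 rose (1.13), by 0.65 and 1.87 against these libraries, and it shares 440 of its 1237 exon bases with an antisense gene. CXCL1 and CXCL3 are related genes, and any reads that fit both were not counted. The median log2FC of the targets after 3 days, −0.53, became 0.35 against young library 2 alone and −1.11 against young library 1 alone, after 6 days −0.22 became 0.22 and −0.48, and in MetaICM 0.16 became 0.55 and −0.31.

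**Figure D5:**
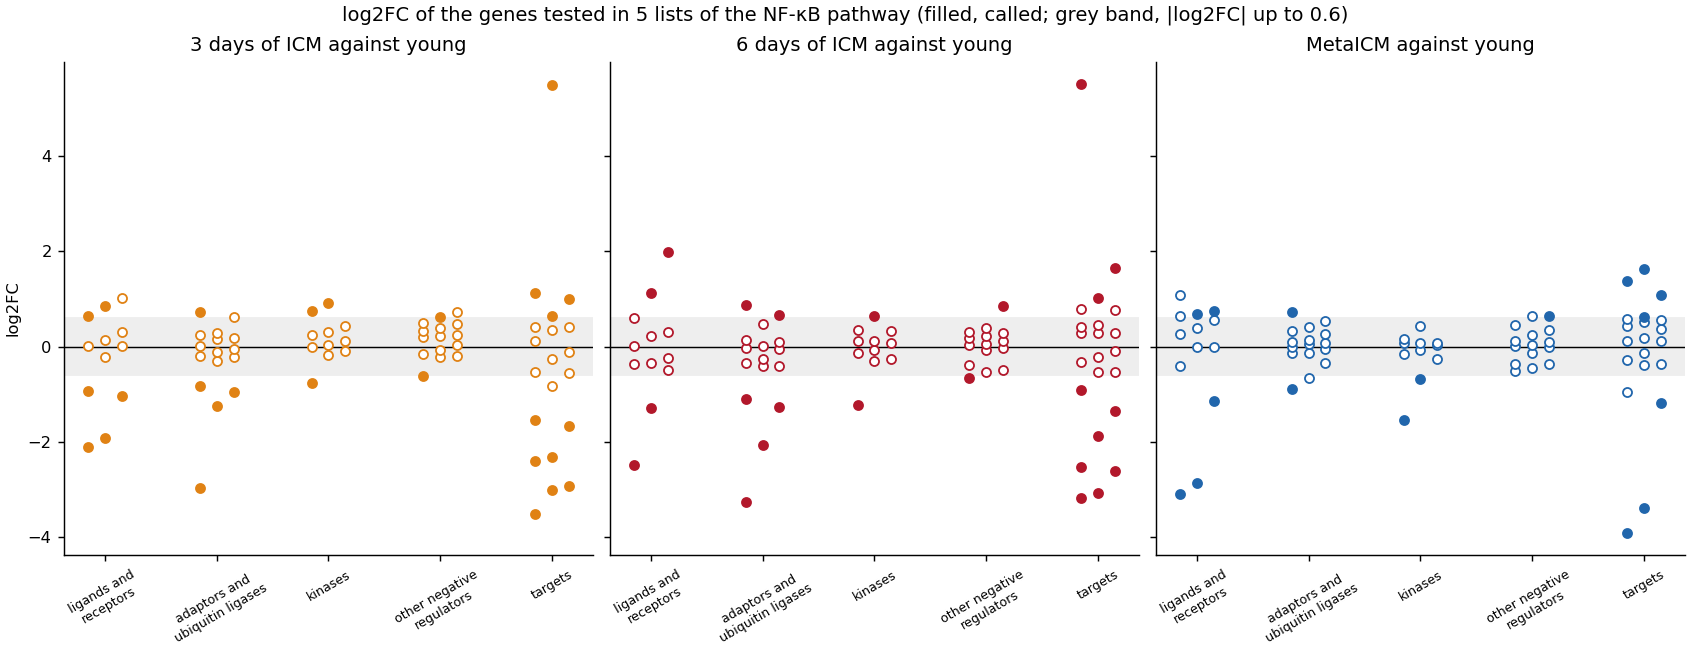
log2FC against young of the tested genes of 5 NF-κB pathway lists after 3 days of ICM, 6 days of ICM and in MetaICM, with 1 circle per gene, filled where called; CXCL1 after 3 days and IL32 after 6 days are left out because their treated libraries held 3 or 0 counts. The targets spread most, from VCAM1 (−3.52) to MMP3 (5.49) after 3 days.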

How the data were processed

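Nascent RNA of transcription factories was measured in 8 IMR90 libraries, though the labels describe poly(A)-selected RNA of lysed cells. Per the submitters' notes and the file headers, the authors aligned reads to GRCh37 with STAR 2.6.0c and counted read pairs on RefSeq exons without strand (featureCounts 1.6.3), leaving out pairs that fit several places or genes. The deposited values are raw counts. The study itself analysed intronic counts, not used here.

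Groups were compared in pairs with edgeR 4.0.16 (R 4.3.3): TMM factors, filterByExpr at a count minimum of 10, the quasi-likelihood test and Benjamini-Hochberg adjustment over all genes; SE is the absolute log2FC divided by the root of F. Levels are CPM with TMM over 8 libraries. Intervals of a log2FC are normal 95% intervals, which are narrower than the quasi-likelihood test implies. The fits were tested on simulated data. Alternatives were DESeq2 1.42.0, other scalings and filters, all libraries in one fit, a replicate block, thinning, an adjusted p of 0.01 and each library left out, which assumes that the remaining library varies like the other group. Named pathway genes are, per list and comparison with young, the 2 called genes with the largest log2FC in each direction, and the likeness search took the 3 highest correlations. Members and lists were chosen with earlier results of these data known. Count intervals and floors cover counting error only.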

Additional observations from a re-analysis of the deposited data

Results flagged for a closer look

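In a direct test of 6 against 3 days of ICM, RELB and NFKBIA were lower at the later time. The log2FC was −0.72 for RELB and −0.78 for NFKBIA (edgeR, n = 2 libraries each, adjusted p = 0.0220 and 0.00136). No young library is labelled with a day, so longer ICM and longer culture cannot be told apart. Neither call held under every alternative, as given above. All 6-day libraries were below all 3-day libraries in both genes. With 2 libraries per group, no test for a library that stands apart was possible.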

How the results depend on the processing

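Of 540 member log2FC under alternatives that kept all libraries, 514 kept their direction and their side of the thresholds, 13 lost a call, 6 gained one and 7 turned sign near 0. NFKBIA after 3 days turned to 0.0451 with library totals. NFKB2 in MetaICM against young turned to −0.0122 with upper-quartile factors. REL between 6 and 3 days turned to −0.0032 with DESeq2, −0.0281 with library totals, −0.0015 with at least 10 counts in every library and −0.0186 after thinning. The cause was not tested.

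The count of called members moved by over 1.5 times with an adjusted p of 0.01 (2 rather than 4 after 3 days, 1 rather than 2 for 6 against 3 days), with DESeq2 or thinning (1 rather than 2 for 6 against 3 days), with all genes with a count (3 rather than 6 after 6 days) and with all 8 libraries in one fit (2 rather than 4 for MetaICM against 3 days). Over all genes, an adjusted p of 0.01 left 1532 rather than 2609 calls for MetaICM against young.

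With each library left out in turn, 2301 to 4068 genes and 2 to 5 members were called after 3 days, 1049 to 4086 genes and 1 to 5 members in MetaICM against young, and 0 to 3 members for 6 against 3 days. Values that turned sign ranged, against young, from −0.44 to 0.53 for NFKBIA and −0.61 to 0.55 for NFKBIE after 3 days, −1.02 to 0.11 for NFKBIE after 6 days, and −0.16 to 0.21 for NFKB2, −0.10 to 0.41 for RELB and −0.11 to 0.84 for NFKBIA in MetaICM. For 6 against 3 days they ranged from −0.0013 to 0.14 for NFKB2 and −0.18 to 0.18 for REL, for MetaICM against 6 days from −0.0081 to 0.19 for RELA and −0.047 to 0.16 for NFKBIB, and for MetaICM against 3 days from −0.21 to 0.028 for RELA.

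The replicate numbers share only a number: deviations of same-numbered libraries correlated at 0.227, 0.0658, −0.0404, 0.112, 0.0345 and −0.135 over the 6 comparisons. With the replicate block, 3915, 5116, 2823, 1450, 4484 and 3799 genes were called, TNFAIP3 (−0.70) was also called between 3 and 6 days and NFKBIB (0.60) in MetaICM against young, and NFKBIA after 3 days turned to 0.0007. The crossed pairing for MetaICM against 3 days, added after seeing the data, gave 3956 genes and 4 members. The SE of a member log2FC ran from 0.08 to 0.34, which limits what 2 libraries per group could detect.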
